A study of Mus musculus with 59 samples.

Results

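The heat shock genes described here are 9 mouse genes, Hspa1a, Hspa1b, Hspa2, Hspa8, Hsph1, Dnajb1, Hsp90aa1, Hspb1 and Hspd1, taken as every probe set on the array whose single gene symbol is one of these names. They held 21 of the 45101 probe sets and were 9 of the 18194 genes with a single-symbol probe set. All are known as cytosolic chaperones except Hspd1, which encodes the mitochondrial chaperonin Hsp60 and is kept in the group because the rule names it. The question put to them was how they responded to the prenatal drug at E14.5 and to a running wheel in adults, over all 19 groups of the series.

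Heat shock proteins hold and refold unfolded proteins. Hsp70 proteins bind exposed stretches of a client protein and release them through a cycle of ATP hydrolysis: J proteins such as Dnajb1 (Hsp40) start the cycle, Hsph1 (Hsp110) exchanges the nucleotide that ends it, and Hsp90 takes over clients that are nearly folded. Small heat shock proteins such as Hspb1 keep unfolded proteins soluble without ATP. Hspa1a and Hspa1b are the stress-inducible Hsp70 genes, Hspa8 is the constitutive one that neurons use at synapses and for uncoating clathrin vesicles, and Hspa2 is an Hsp70 known best from the testis. Many of these genes are induced by heat shock factors, which bind inverted repeats of the letters GAA.

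RNA was measured on 59 Affymetrix arrays of brain tissue from C57BL/6 mice. All mothers received an oral dose on each of 3 days of pregnancy, E12.5 through E13.5 to E14.5. The vehicle was 0.5% methylcellulose (MC), and the drugs, both at 300 mg/kg, were valproic acid (VPA), used against epilepsy, and its amide valpromide (VPM). The E14.5 telencephalon was taken 3 h after the last dose, and the E18.5 hippocampus and E18.5 forebrain came later without a further dose; each of these sets had MC, VPA and VPM groups of 3 arrays. Adult male offspring aged 12 to 13 weeks gave hippocampus and cortex, with 3 arrays for each of MC, VPA, MC+RW and VPA+RW, where RW stands for a running wheel in the cage after weaning. A further set of male P84 hippocampus had 4 MC and 4 VPA arrays. Embryos were exposed through the dam, and the labels do not name litters, dams or the amount run, so p-values measure the spread between these samples. The number of arrays limits the precision. In these bulk samples fewer cells of a type and less RNA per cell cannot be told apart.

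Signals below are scaled so that the trimmed mean of each array is 500, values under 32 are set to 32 before log2, and groups were compared with limma, with Benjamini-Hochberg adjusted p under 0.05 called a pass. Before scaling the trimmed mean ran from 197.6 to 419.4, and 0 of 1711 array pairs were identical. Summed over 6 hippocampus markers the signal was 9197 to 11610 on adult and P84 hippocampus arrays and 4303 to 5401 on cortex arrays, and over 5 cortex markers 3347 to 4592 and 9389 to 10823, so the adult tissue labels matched their markers. Of the 27 embryonic arrays 12 had a high Xist signal, as had 0 of the 32 adult arrays. At E14.5 the summed signal of 7 choroid plexus markers reached 20463 on VPM replicate 3 against 209 to 454 on the MC and VPA arrays, and that of 5 erythroid markers lay at 10915 to 12863 with MC, 6544 to 9945 with VPA and 2554 to 3179 with VPM; their part in the results was not tested.

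Because Hspa1a and Hspa1b moved together in the embryo, the bases upstream of their starts are shown first, as RefSeq gives them on GRCm38.p6. Capitals mark an inverted pair of heat shock element units, GAA and TTC with 2 bases between them. Hspa1a lies on the minus strand, with the bases shown at chr17:34972157-34972406, and Hspa1b on the same strand, at chr17:34959239-34959488. Both runs end at the base before the start. The genes themselves span 34969359 to 34972156 and 34956429 to 34959238 of chromosome 17.
Hspa1a: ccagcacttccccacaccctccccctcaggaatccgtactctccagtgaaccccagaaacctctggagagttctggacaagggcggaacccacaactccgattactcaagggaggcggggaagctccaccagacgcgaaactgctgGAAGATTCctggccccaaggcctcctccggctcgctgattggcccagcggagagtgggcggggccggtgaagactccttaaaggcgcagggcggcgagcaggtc
Hspa1b: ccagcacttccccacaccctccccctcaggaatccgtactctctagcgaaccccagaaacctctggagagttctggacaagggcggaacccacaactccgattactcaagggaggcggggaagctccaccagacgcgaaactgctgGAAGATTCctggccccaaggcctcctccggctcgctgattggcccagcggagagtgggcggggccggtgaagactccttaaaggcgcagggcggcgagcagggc
The runs matched at 247 of 250 positions (98.8%), and the capitals stand at bases -104 to -97 in both. The transcribed parts of these neighbouring genes are also known to be nearly identical, so probe sets named for one may take up RNA of the other, and their values are not given as evidence of separate genes.

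Windows of 300 bases, 250 before to 50 after the start, were searched for GAA and TTC in either order with any 2 bases between them (a pair), and for 3 such units in alternation with the same spacing (a triple, which holds overlapping pairs). A pair reads the same on both strands, and a triple was searched in both orders. A pair stood in 15.1% of the 32851 RefSeq windows and a triple in 0.603%. Of the 9 genes 7 had a window (Hspa8 and Hsp90aa1 are named only), 5 of them had a pair and 2 a triple. The other matches within these windows are printed here, with the matched letters in capitals. Bases outside the windows were not searched. Of the genes that rose in the VPA embryos, described further on, Hspa1a, Hspa1b, Hsph1 and Hspb1 hold a pair and Hspa2 holds none in its window. Of those that did not pass the test there, Hspd1 holds pairs in one of its windows and Dnajb1 holds none. The Hsph1 runs are from the minus strand at chr5:149636287-149636308, which lies within the first transcribed bases, and chr5:149636354-149636377. The Hspb1 runs are from the plus strand at chr5:135887794-135887817 and chr5:135887814-135887837, and the Hspd1 run is from the minus strand at chr1:55088053-55088082, upstream of one of its starts.
Hsph1, after the start: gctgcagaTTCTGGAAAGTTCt
Hsph1, before the start: tagaatctTTCTCGAAggctcgag
Hspb1, farther from the start: caacaagaGAAGTTTCcagatggg
Hspb1, nearer to the start: tgggggcaGAACCTTCctggcccc
Hspd1: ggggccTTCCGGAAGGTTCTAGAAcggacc
A match describes letters only, and no binding was measured.

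In the E14.5 telencephalon 3 h after the last dose, VPA was followed by higher signal of Hspa1a, Hspa1b, Hspa2, Hspb1 and Hsph1, from 1.32-fold for Hsph1 to 6.03-fold for Hspa1b, with no fold given for Hspa1a because most of its MC arrays lay below the floor. So 5 of the 9 genes rose and 0 fell, while with VPA 53.8% of all 11068 genes tested passed, 27% higher and 26.8% lower. Of the 5, Hspa1a, Hspa1b and Hspa2 reached the filter (a signal of 100 on 3 arrays) only with the VPA arrays, where they were high, so the count is not read against that share; of the other 6 genes 2 rose, Hsph1 and Hspb1. The median change of the 9 genes, which rests on the same 3, was 0.40 on the log2 scale, beside -0.0030 over all genes tested. The others, Hspa8, Dnajb1, Hsp90aa1 and Hspd1, did not pass the test.

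The inducible Hsp70 pair had the largest changes of the 9. Hspa1a read 47.1, 28.7 and 29.4 on the MC arrays, 288, 266 and 268 on the VPA arrays and 31.4, 35.7 and 55.6 on the VPM arrays. All 3 VPA arrays thus stood well above the other 6, which overlapped each other. The change from MC was 2.91 ± 0.258 (SE) on the log2 scale with an adjusted p of 3.56e-06, and 2 of 3 MC arrays entered it at the floor of 32, which holds the change down. Hspa1b read 78.7, 52.1 and 74.4 with MC, 472, 317 and 448 with VPA, and 57.4, 50.8 and 39.4 with VPM. Its VPA arrays were again the highest, and its rise was 2.59 ± 0.232 (adjusted p = 3.79e-06). The other pair of Hspa1b probe sets rose by 2.61 and 2.78, in a fit over 19835 probe sets of which 49.6% passed. Neither gene reached the filter signal of 100 on any of the 6 MC and VPM arrays, so both entered the test only through the VPA arrays.

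Hspa2 read 137, 97.0 and 85.8 with MC against 310.3, 307 and 313 with VPA, and 87.5, 75.2 and 116 with VPM. The VPA arrays lay close together and above the rest, and the rise was 1.57 ± 0.206 (adjusted p = 6.12e-05). Only 2 of the 6 MC and VPM arrays reached the filter signal, so Hspa2 too entered the test through the VPA arrays. Hsph1, the nucleotide exchange factor, read 4159.7, 4429 and 4234 with MC, 5585, 5706 and 5631 with VPA, and 3429, 3513 and 3604 with VPM. Here the 3 groups separated fully, VPA above MC and MC above VPM. The VPA rise was 0.40 ± 0.049 (adjusted p = 3.44e-05), and the second Hsph1 probe set gave 0.38 (adjusted p = 0.00119 over probe sets).

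Hspb1, the small heat shock protein, read 128, 169 and 106 with MC, 184, 204 and 186 with VPA, and 139.9, 129 and 129.9 with VPM. Its VPA arrays lay above all others, but the MC arrays spread widely, and its rise of 0.53 ± 0.174 had an adjusted p of 0.0221. That call was lost without a filter (adjusted p = 0.0560) and without MC replicate 1 (0.0555), MC replicate 3 (0.0949) or VPA replicate 2 (0.0677).

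Hspa8, the constitutive Hsp70, read 22282, 24707 and 24257 with MC, 21815, 22667 and 21904 with VPA and 24769, 24252 and 24676 with VPM. Its MC and VPA arrays overlapped, and the change of -0.10 had an adjusted p of 0.103, which became 0.0485 with quantile normalization and 0.0266 without MC replicate 1. This probe set ranked between 10 and 82 of 45101 within arrays, near the top of the scale. Another Hspa8 probe set fell by 0.43 (adjusted p = 0.0400), with overlapping groups. The difference was -0.10 for Hsp90aa1 (95% interval -0.24 to 0.03), 0.05 for Dnajb1 (-0.14 to 0.24) and 0.03 for Hspd1 (-0.07 to 0.12), none reaching the 0.40 of Hsph1. VPA and MC arrays did not overlap for 5 of the 9 genes, beside 60.2% of all genes.

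**Figure D1:**
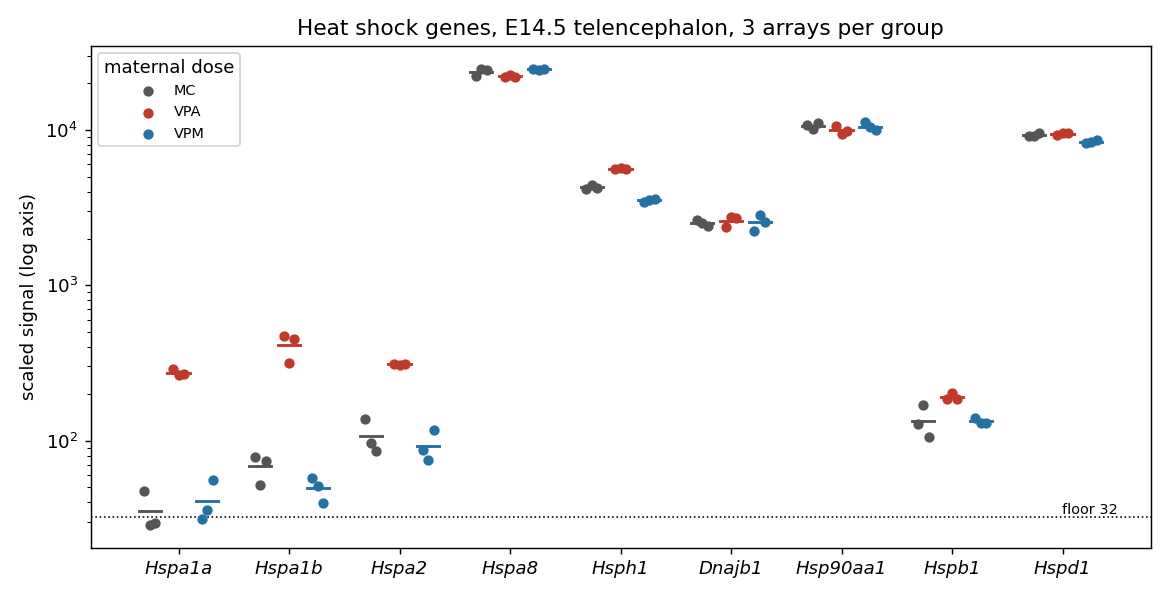
Scaled signal (log axis) of the 9 genes on each E14.5 telencephalon array, with grey points for MC, red for VPA and blue for VPM, short lines for group means (n = 3 arrays) and a dotted line at the floor of 32. The red points of Hspa1a, Hspa1b and Hspa2 lie between 266 and 472, above all MC and VPM points, while the points of Hspa8, Dnajb1 and Hsp90aa1 lie close together across groups.

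With VPM at the same dose and time, 1 of the 9 genes passed, and in the other direction: Hsph1 fell by 0.28 on the log2 scale (SE 0.049, adjusted p = 0.00494); 11.6% of all genes passed and 32.8% had groups that did not overlap, as 2 of the 9 did. The Hsph1 call was lost with the values as deposited (adjusted p = 0.0912), and the second Hsph1 probe set fell by 0.32 (0.0190). The change with VPM was 0.13 for Hspa1a (95% interval -0.43 to 0.70), -0.47 for Hspa1b (-0.98 to 0.04), -0.19 for Hspa2 (-0.64 to 0.26) and 0.01 for Hspb1 (-0.37 to 0.39). Hspd1 was lower by 0.15 with an adjusted p of 0.0514, which passed without a filter (0.0401), with a filter at 200 (0.0475) and with the replicate number as a block (0.0458).

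Set directly against each other, VPA and VPM differed for 7 of the 9 genes, with 6 higher and 1 lower under VPA; 54.5% of all genes differed, and 60.7% had groups that did not overlap, as 7 of the 9 did, Hspa1a, Hspa1b and Hspa2 again entering through the VPA arrays. The difference was 2.78 for Hspa1a (95% interval 2.21 to 3.34), 3.06 for Hspa1b (2.56 to 3.57), 1.76 for Hspa2 and 0.68 for Hsph1 (0.58 to 0.79). It was 0.52 for Hspb1 and 0.18 for Hspd1, and Hspa8 was lower under VPA by 0.15. The calls of Hspb1, Hspd1 and Hspa8 were each lost under some settings, with adjusted p of 0.0582 for Hspb1 and 0.0881 for Hspa8 without a filter, and of 0.0874 for Hspd1 and 0.399 for Hspa8 with the values as deposited. Leaving out VPA replicate 2, VPM replicate 2 or VPM replicate 3 also ended the Hspb1 call, and leaving out VPA replicate 1 or 3 or VPM replicate 1 or 3 that of Hspa8. Dnajb1 and Hsp90aa1 did not pass.

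Other chaperone genes were read from lists by function, and each count with VPA stands beside 27% of all genes higher and 26.8% lower, and each with VPM beside 11.6% passing. The count of J proteins lies near the share for VPA, and the lists are short and carry no test. Of 4 further cytosolic Hsp70 and Hsp110 genes tested, 3 rose (Hspa14 by 0.54, Hspa4l by 0.48 and Hspa12a by 0.39); with VPM Hspa12a rose too (0.70) and Hspa4l fell by 0.26 on the log2 scale. Of 8 nucleotide exchange and co-chaperone genes of Hsp70, 5 rose and 1 fell. Bag3, a partner of Hsp70 in protein quality control, went from 88.9 ± 10.7 (SD, n = 3) to 222 ± 24.3, a change of 1.32 (adjusted p = 8.47e-05), and reached the filter only with the VPA arrays; Bag4 rose by 0.53 and Stub1, a ubiquitin ligase bound to Hsp70, by 0.41, whereas Hspbp1 fell by 0.43. Of 12 J protein genes, 4 rose and 2 fell: Dnajb4, a close relative of Dnajb1, went from 554 ± 53.2 to 1149 ± 86.6 (change 1.05, adjusted p = 3.13e-06), while Dnaja1 fell by 0.21 and Dnajb5, named after its value was seen, by 0.28. With VPM 1 of the 12 rose, Dnajc6 by 0.23 (adjusted p = 0.0371; named after its value was seen).

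Of 9 tested Hsp90 co-chaperone genes, 5 rose and 1 fell. Fkbp5, an immunophilin and a glucocorticoid target, rose by 0.55, Stip1, which hands clients from Hsp70 to Hsp90, by 0.45, Unc45a by 0.43 and Fkbp4 by 0.30, and Chordc1, named after its value was seen, fell by 0.16. Of 15 chaperones of the endoplasmic reticulum, which answer to a separate stress pathway, 8 rose and 0 fell, among them Dnajb11 (0.47), Creld2 (0.45), Calr (0.39) and Pdia3 (0.32). With VPM 0 of these 15 rose and 2 fell, Sdf2l1 by 0.62 and Hspa5 by 0.30 (named after their values were seen). Of 9 mitochondrial chaperone and protease genes, 1 rose (Lonp1, 0.24) and 4 fell, among them Clpb (by 0.65), Timm44 (by 0.38) and Trap1 (by 0.36). The TRiC chaperonin had 1 of 8 genes higher, and Hspb8 was the 1 of 2 tested small heat shock protein genes that fell, by 0.81. The heat shock factor list also held Hsbp1, which encodes a factor-binding protein, and Hsf1 was not among the genes read here. The 1 gene of that list that could be tested did not pass. VPM moved 0 of 9 Hsp90 co-chaperones, 0 of 8 Hsp70 co-chaperones and 0 of 9 mitochondrial genes past the threshold. The medians under VPA were 0.44, 0.29, 0.02, 0.18, 0.26 and 0.02 for the further Hsp70, Hsp70 co-chaperone, J protein, Hsp90, endoplasmic reticulum and mitochondrial lists, beside -0.0030 over all genes tested. Of 6 tested oxidative stress genes 3 rose, with Gsta4 at 2.22, Hmox1 at 1.04 and Gclc at 0.80; Hmox1 reached the filter only with the VPA arrays. Cell type markers moved as well: 4 of 9 endothelial and pericyte markers fell with VPA (summed signal 3470.1 to 3755, against 4084 to 4570.2 with MC and 4682 to 5509.5 with VPM), and 3 of 4 tested cortex markers fell while 1 rose (summed signal 3167 to 3349, against 6143 to 6588 and 5852 to 7509.9), and their part in these values was not tested.

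At E18.5, with no dose after E14.5, 0 of the 9 genes passed in any comparison of MC, VPA and VPM. In the hippocampus limma called 0% of all genes with VPA against MC, 0.00867% with VPM against MC and 0% between the drugs, and 2, 1 and 3 of the 9 genes had an unadjusted p under 0.05. In the forebrain the shares were 2.16%, 0% and 0.53%, and 0 of the 9 had an unadjusted p under 0.05 in each. Hspa1a in the E18.5 hippocampus read 67.0, 75.5 and 93.0 with MC, 115, 188 and 116 with VPA, and 66.7, 71.2 and 69.7 with VPM. The VPA arrays lay above all others, but the change of 0.80 from MC (95% interval 0.30 to 1.31) had an adjusted p of 0.227, and that from VPM was 0.97 (0.47 to 1.48, adjusted p = 0.116). Non-overlapping MC and VPA arrays were seen for 6 of the 9 genes, beside 17.8% of all genes there. Of these 6, Hspa1a and Hspa1b were higher with VPA and the other 4 (Hspa8, Hsph1, Hsp90aa1 and Hspd1) lower. In this tissue VPA replicates 2 and 3 had a high Xist signal and no MC array had, so drug and inferred sex were not balanced. Hspa8 lay at 19833, 19888 and 22538 with VPA against 23003 to 25214 with MC (change -0.21, adjusted p = 0.291). In the forebrain Hspa1a read 131 to 141 with MC and 99.4 to 164 with VPA, and Hspa1b differed by -0.41 (-0.87 to 0.05).

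Whether the response differed with age was tested as the VPA effect at E14.5 minus the VPA effect at E18.5. Against the forebrain, 4 of the 9 genes passed, all with the larger effect at E14.5 (38% of all genes passed): Hspa1a by 2.99 ± 0.319 (SE, adjusted p = 1.04e-07), Hspa1b by 3.00, Hspa2 by 1.63 and Hsph1 by 0.35. Against the hippocampus the same comparison gave 2.11 for both Hspa1a and Hspa1b, 1.29 for Hspa2 and 0.51 for Hsph1, again 4 passes (39.6% of all genes). Tissue and time since the last dose differ between these sets as well, and cannot be told apart from age. With the values as deposited, Hsph1 lost both calls (adjusted p = 0.482 and 0.411). Hspb1 missed the threshold against the forebrain (0.64, adjusted p = 0.0748).

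**Figure D2:**
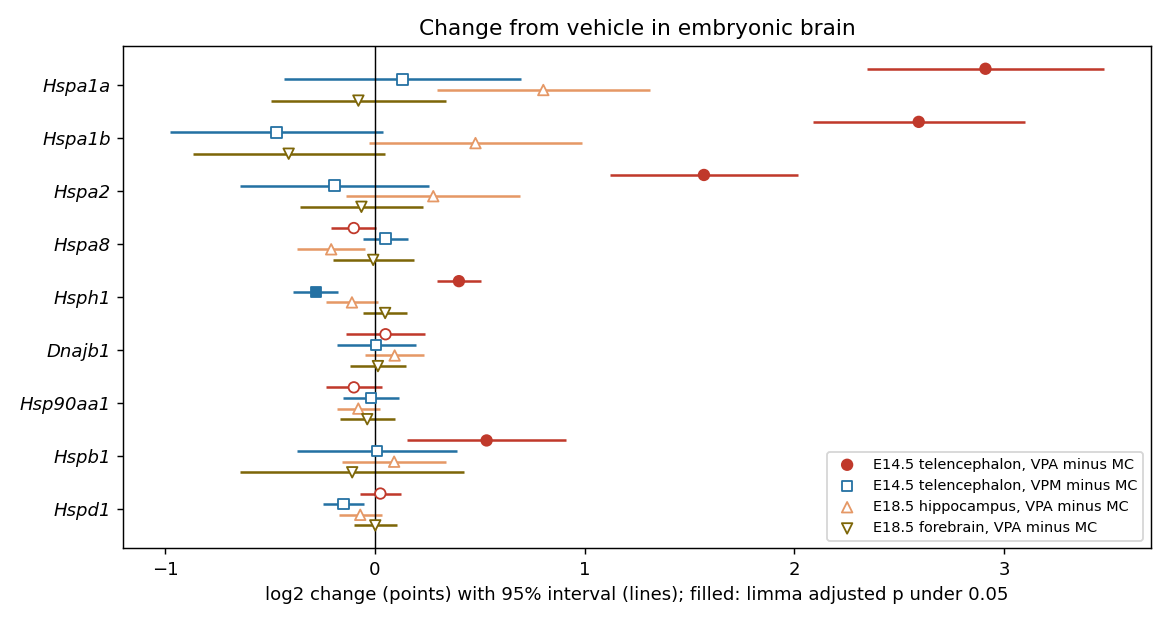
Log2 change from vehicle of each gene (points) with its 95% interval (lines) for VPA and VPM in the E14.5 telencephalon and for VPA in the E18.5 hippocampus and forebrain; filled points passed an adjusted p of 0.05. Only the VPA points at E14.5 are filled to the right of 0, for Hspa1a, Hspa1b, Hspa2, Hsph1 and Hspb1, and Hsph1 with VPM is filled at -0.28.

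Across age the vehicle groups differed in both directions. These are levels on separate sets of arrays and were not tested. Hspa1a averaged 35.1 ± 10.4 (SD, n = 3) at E14.5, 78.5 ± 13.2 in the E18.5 hippocampus, 135 ± 5.2 in the E18.5 forebrain, and 519 to 560 in the adult MC groups, 554 ± 32.8 of these at P84. Hspa1b went from 68.4 ± 14.3 at E14.5 to 1944.5 ± 256 in the adult hippocampus, Hspa2 from 107 ± 27.1 to 2278 ± 368, and Hspb1 from 135 ± 32.2 to 907 ± 244. For these 4 genes no adult or E18.5 vehicle array overlapped the E14.5 ones, and the same held for Hspd1 and Hsp90aa1. The share of all genes without overlap was not computed, so this is not read as a trait of these genes. The E14.5 VPA arrays of Hspa1a, at 266 to 288, stood above every E18.5 array and below every adult one.

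Other genes were lower in adults on the probe set with the highest mean signal, which gives the levels here unless another is named. Hspd1 went from 9304 ± 226 to 4155 ± 44.0 in the adult hippocampus, as its mitochondrial partner Hspe1 did from 5484 ± 359 to 2173 ± 155, Hspa8 from 23749 ± 1290 to 13855 ± 530, and Dnajb1 from 2516 ± 106 to 1612 ± 51.5. Another strong Hspa8 probe set was lower too, at 18863 to 20824 on E14.5 MC arrays and 12091 to 13551 on adult hippocampus MC arrays. A further strong one ran the other way, at 3816 to 5226.5 and 10559 to 12301. So did a weak one, at 81.2 to 91.3 and 445 to 544. The direction for Hspa8 thus depended on the probe set. Hsp90aa1 stood at 10646 ± 521 at E14.5 and 13182 ± 625 in the adult hippocampus. Another strong Hsp90aa1 probe set was lower in adults, at 12619 to 13856 on E14.5 MC arrays and 9616 to 10495 on adult hippocampus MC arrays. A further one overlapped, at 9586.5 to 10354 and 10160 to 10898. The direction for Hsp90aa1 across age thus also depended on the probe set. The other Dnajb1 probe set read 1771 to 1834 on E14.5 MC arrays and was lower on adult hippocampus MC arrays, at 1197 to 1250. It overlapped on adult cortex MC arrays, at 1719 to 2123. On E18.5 hippocampus MC arrays it read 1039.5 to 1071, below the adult hippocampus, so its direction depended on the tissue and age compared. Hsph1 had group means between 3515 and 6592 over all 19 groups, the lowest in E14.5 VPM and the highest in adult cortex MC+RW. Its other probe set differed more with age, at 2045 to 2250 on E14.5 MC arrays and 4091 to 4277 on adult hippocampus MC arrays. When the 19 groups were ordered by mean, arrays of neighbouring groups overlapped for 13 of 18 neighbour pairs of Hspa1a, 14 of Hspa1b, Hspa2 and Hspd1, 15 of Dnajb1, 16 of Hsph1 and Hspb1, and 17 of Hspa8 and Hsp90aa1. The top group was a hippocampus group for Hspa1a and Hspa1b (with running) and Hspa2 (adult MC), and an embryonic group for Hspa8, Dnajb1 and Hspd1.

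The adult and P84 vehicle hippocampus, close in age, still differed without overlap for 3 of the 9 genes, all lower at P84. The share of all genes without overlap was not computed here, so this count is not read as a trait of these genes. Hspa1b read 1131 to 1213 at P84 against 1661 to 2157 in the adult set, Hspa2 1681 to 1880.1 against 2040 to 2702, and Dnajb1 1109 to 1238 against 1566 to 1668. On its other probe set Dnajb1 overlapped, at 1099 to 1216 against 1197 to 1250. Cirbp, which encodes a cold-inducible RNA-binding protein, and the clock output gene Dbp ran the other way, at 1889 to 2111 against 1200 to 1529 and 2131 to 2298 against 1049.8 to 1373. The labels do not say whether the sets were raised or sampled together, so set and age cannot be told apart.

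**Figure D3:**
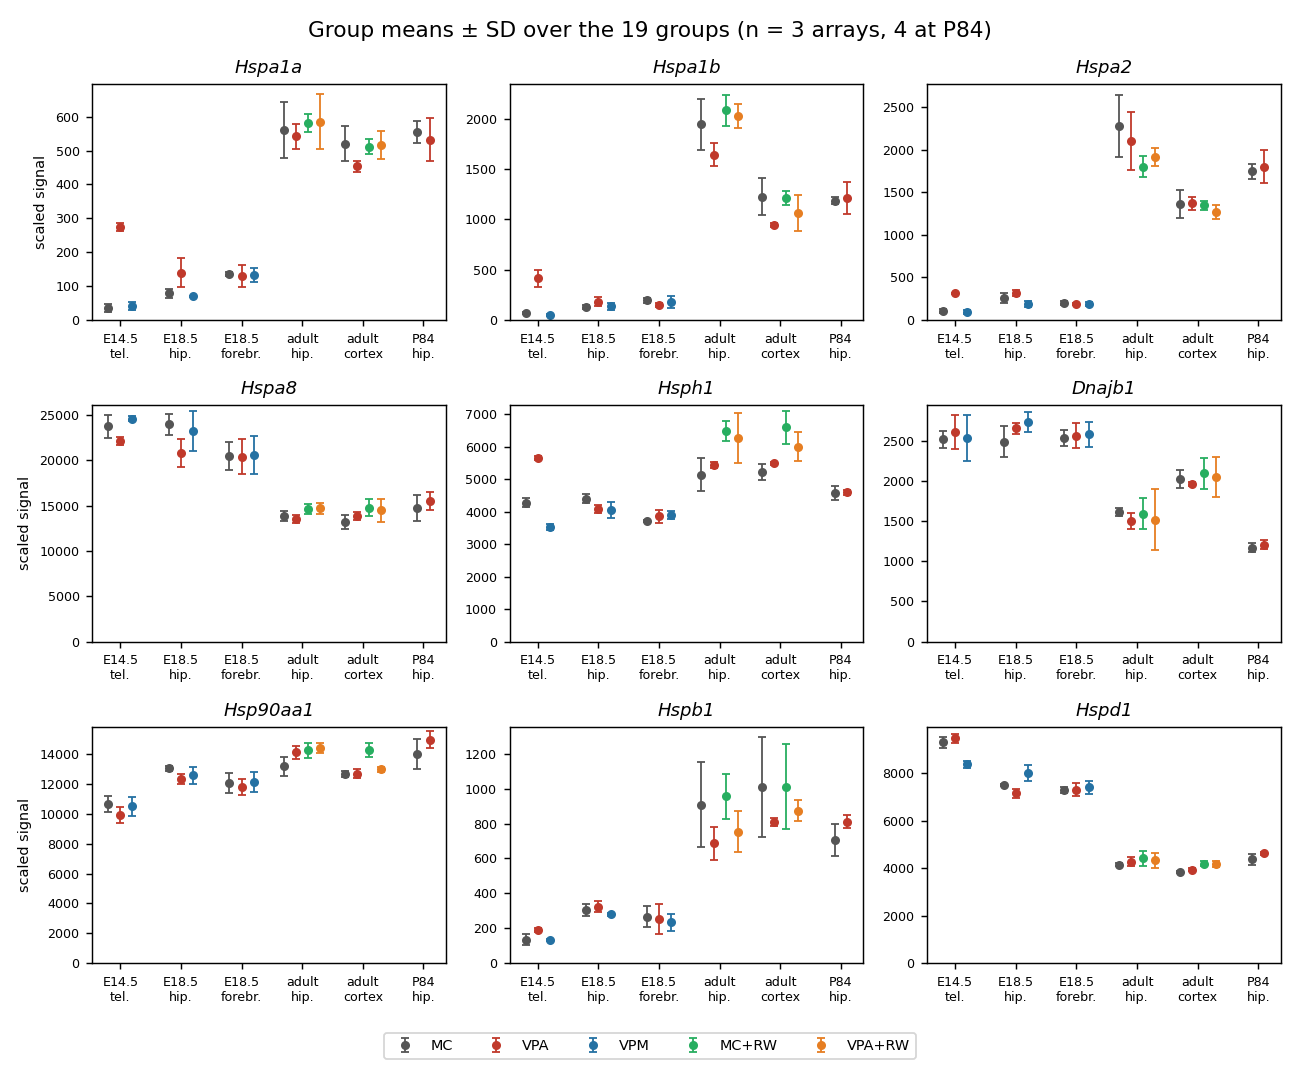
Mean scaled signal (points) ± SD (bars) of each gene in the 19 groups, by age and tissue (n = 3 arrays, 4 at P84), with colours for treatment and each vertical axis from 0. Each gene is shown by its probe set with the highest mean signal, and other probe sets of Hspa8, Hsp90aa1, Hsph1 and Dnajb1 differed across age. On those shown, Hspa1a, Hspa1b, Hspa2 and Hspb1 are lowest in the embryo and highest in adults, and Hspa8 and Hspd1 the reverse. Hsph1 has group means between 3515 and 6592.

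In adults exposed to VPA before birth 0 of the 9 genes passed in the hippocampus (0% of all genes passed in limma; 2 of the 9 had an unadjusted p under 0.05), in the cortex (0.00735%; 1 of 9) or at P84 (0%; 1 of 9). The intervals of the change in Hspa1a ran from -0.29 to 0.22 in the adult hippocampus and from -0.26 to 0.13 at P84. Hspa1b was lower with VPA by 0.24 in the hippocampus (95% interval -0.44 to -0.04) and by 0.37 in the cortex (-0.62 to -0.11), with adjusted p of 0.406 and 0.345, and differed by 0.03 at P84.

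With a running wheel, the gene with the largest mean difference in both tissues was Hsph1. In the hippocampus it read 5510.4, 4549.8 and 5318 in MC, 6211, 6430.1 and 6803 in MC+RW, 5362, 5551 and 5409 in VPA, and 6428, 6923 and 5420.5 in VPA+RW. In the cortex it read 5497, 5040 and 5140 in MC, 6895, 6863 and 6018 in MC+RW, 5434, 5509 and 5512 in VPA, and 6222, 6301 and 5473 in VPA+RW. In each tissue 5 of 6 running arrays were above all 6 arrays without a wheel, the exception being VPA+RW replicate 3 both times. Averaged over MC and VPA offspring the difference was 0.27 ± 0.059 (SE) in the hippocampus and 0.23 ± 0.047 in the cortex, but neither passed when each tissue was fitted alone (adjusted p = 0.0885 and 0.0873).

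On its second probe set Hsph1 separated completely, the 6 running arrays at 4716 to 5557 against 3827 to 4277 in the hippocampus and at 4636 to 5541 against 4173 to 4561 in the cortex. There the difference was 0.33 (adjusted p = 0.0160) in the hippocampus, where 0.19% of 24264 probe sets passed and 1.01% had groups that did not overlap, and 0.23 (adjusted p = 0.0987) in the cortex, where 0.892% did not overlap.

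In the tissues taken singly, 0 of the 9 genes passed in any running comparison by limma. With MC offspring the shares of all genes passing were 0% in the hippocampus and 0.0147% in the cortex, and 3 and 4 of the 9 genes had an unadjusted p under 0.05; with VPA offspring they were 0% and 0%, with 3 and 0 of the 9. For the mean of both they were 0.342% and 0.0955%, with 5 and 4 of the 9. VPA+RW against MC+RW gave 0% and 0.022%, with 0 and 1 of the 9, and the difference in running effect between VPA and MC offspring gave 0% and 0%, with 0 and 2 of the 9. MC and MC+RW arrays did not overlap for 3 of the 9 genes in each tissue, beside 12.8% of all genes in the hippocampus (2 of the 3 higher with running) and 17.8% in the cortex (3 higher). For Hspd1 in the cortex all 6 running arrays (4018 to 4292) were above all others (3801 to 4000), as for 1.07% of all genes, with a difference of 0.10 and an adjusted p of 0.213.

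Hippocampus and cortex were also fitted together, with same-numbered arrays of a treatment as a block. The labels do not say whether they came from the same mice. The estimated correlation within a block was 0.029, so the fit treated the arrays almost as independent. If tissues were shared between mice, there were fewer animals than arrays. In that fit running raised 2 of the 9 genes, Hsph1 by 0.25 ± 0.040 (SE, adjusted p = 0.00178) and Hsp90aa1 by 0.086 ± 0.021 (0.0293), with 2.34% of 14010 genes passing. Hspa8 (0.11, adjusted p = 0.0688), Hspd1 (0.078, 0.127) and Hspa1b (0.14, 0.203) did not pass, and Hspa2 stood at -0.14 (0.173). The median over the 9 genes was 0.086, beside -0.0068 over all genes tested. In MC offspring alone Hsph1 rose by 0.34 and Hsp90aa1 by 0.14 (adjusted p = 0.00436 and 0.0196; 1.26% of all genes). In VPA offspring none of the 9 passed (Hsph1 0.16, adjusted p = 0.319; 0.157% of all genes), and the difference between these effects did not pass either (Hsph1 -0.18, 95% interval -0.34 to -0.01, adjusted p = 0.552; 0% of all genes). This fit held only the probe set of highest mean signal of each gene. In the tissues fitted alone, no Hsp90aa1 probe set passed in any running comparison.

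VPA+RW replicate 3 stood apart in both tissues. Dnajb1 read 1083 there in the hippocampus, against 1400.1 to 1810.4 on the other adult hippocampus arrays, and the immediate early gene Fos read 345 in the hippocampus and 628 in the cortex, the lowest of all adult arrays in that tissue. Its Cirbp signal, 1901 in the hippocampus and 2099.6 in the cortex, lay above all other running arrays (957 to 1225 and 1058 to 1502). Left out of both tissues, an alternative chosen after its values were seen, running raised 4 of the 9 genes (4% of all genes): Hsph1 by 0.29 (adjusted p = 8.31e-05), Hspa8 by 0.13 (0.0102), Hspd1 by 0.099 (0.0287) and Hsp90aa1 by 0.089 (0.0282). In VPA offspring Hsph1 then passed as well (0.24, adjusted p = 0.0293; 0.721% of all genes).

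**Figure D4:**
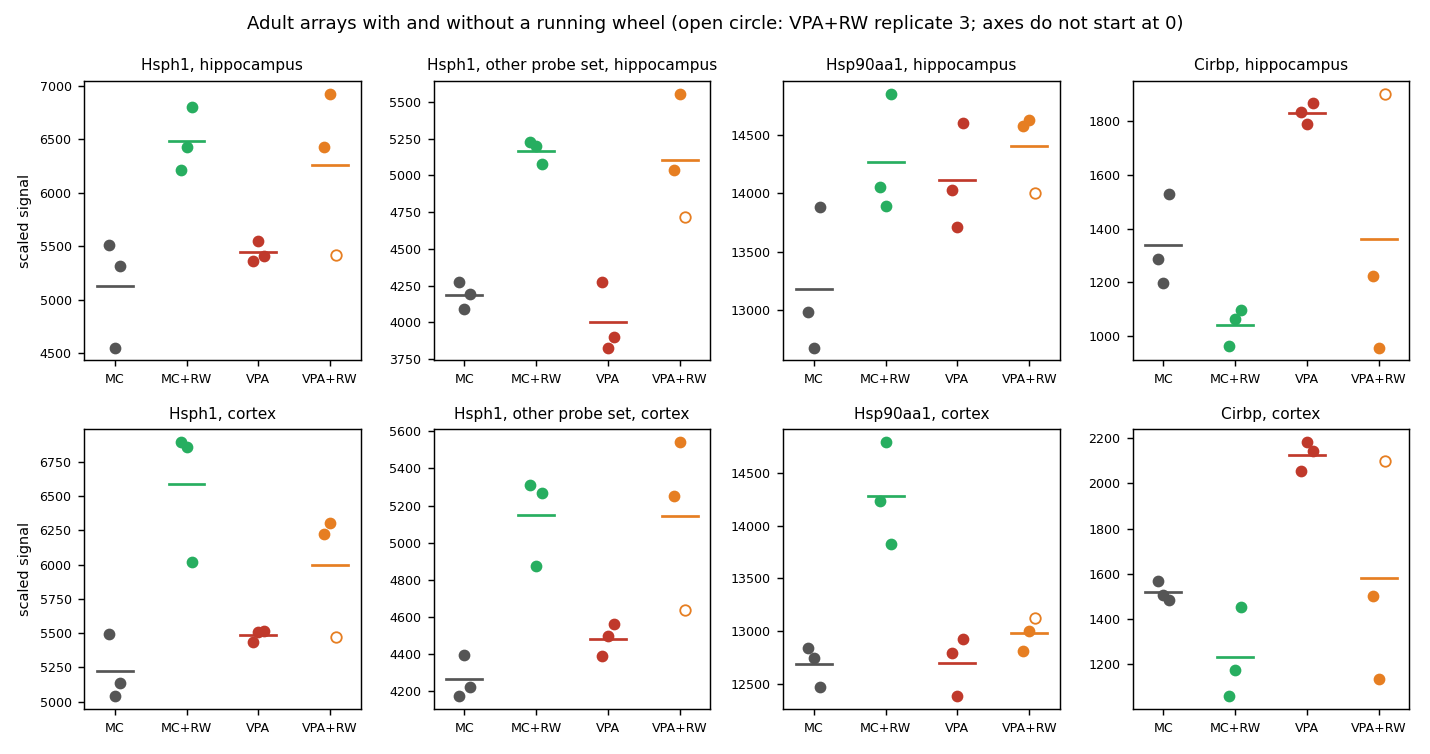
Scaled signal on each adult array (points; open circle, VPA+RW replicate 3) with group means (lines, n = 3) for both Hsph1 probe sets, Hsp90aa1 and Cirbp, in hippocampus (top) and cortex (bottom); the vertical axes do not start at 0. On the second Hsph1 probe set all running arrays lie above all arrays without a wheel. The open circle is the lowest running array on both Hsph1 probe sets in both tissues, and the highest running array for Cirbp.

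In the fit over both tissues some partner genes of the chaperones rose with running, where 2.34% of all genes passed in either direction. Of 9 Hsp90 co-chaperones 3 rose and 0 fell: Ahsa1, which drives the ATPase of Hsp90, by 0.17 (adjusted p = 0.000780), Chordc1 by 0.24 (0.0214) and Fkbp5 by 0.15 (0.0340). Of 15 chaperones of the endoplasmic reticulum 4 rose and 0 fell, Dnajc3 by 0.17, Calr by 0.16, Canx by 0.14 and Pdia3 by 0.13. The J proteins had 1 of 12 higher (Dnajb5, 0.25) and TRiC 1 of 8 (Cct5, 0.15). Of 4 further Hsp70 genes, 8 Hsp70 co-chaperones, 6 small heat shock proteins and 9 mitochondrial genes 0 passed. The same held for the 3 genes tested from the heat shock factor list, Hsf2, Hsf4 and the binding protein gene Hsbp1. In the same fit Cirbp fell by 0.41 (adjusted p = 0.0223), and 4 of 12 clock genes were lower and 1 higher, with Dbp at -0.98 and Arntl at 0.38. Of 10 immediate early genes 1, Dusp1, was lower (-0.72), as were the glucocorticoid targets Sgk1 (-0.50) and Nfkbia (-0.23), with Zbtb16 and Fkbp5 higher (2 of 8 each way). Markers of cell types and regions passed too: of 9 endothelial and pericyte markers Cldn5 was higher (0.23) and Pdgfrb lower (-0.27), of 6 meningeal and fibroblast markers Lum was lower (-0.32), and of 6 hippocampus markers Fibcd1 was lower (-0.26), each named after its value was seen. The summed signal of the endothelial and pericyte markers overlapped, at 6090.1 to 7044 without and 6115 to 7189 with a wheel in the hippocampus and 6075 to 6758 and 5954 to 6906 in the cortex. That of the meningeal and fibroblast markers overlapped as well, at 3694 to 4831 and 3148 to 4615 in the hippocampus and 1965 to 2754 and 1918 to 2349 in the cortex, and their part in the running values was not tested. The labels do not give the time of day of sampling, and the part of the clock gene differences in the running values was not tested.

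A weak Hspa8 probe set read, unlike the main one, 445 to 544 on the MC arrays of the adult hippocampus and 538 to 641 on those of the cortex, and 157 to 460.2 on the other arrays of these sets. At P84 the order was the reverse, 252 to 289 with MC and 327 to 546 with VPA, without overlap (2.94% of 23385 probe sets; difference 0.57, adjusted p = 0.911). The differences of MC+RW from MC (-0.71 and -0.84) and of VPA from MC (-0.61 and -0.72) in the hippocampus and cortex did not pass either, with adjusted p of 0.506, 0.293, 0.459 and 0.434.

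As a description of how the genes varied together, each was set against 13593 other genes. Over the 19 group means, which mostly reflect age, the closest genes were Arfgef2 for Hspa1a (r = 0.985), P4ha2 for Hspa1b (0.989), Ccdc85b for Hspa2 (0.993), Rps7 for Hspa8 (0.989), Rab28 for Hsph1 (0.951), Osbpl5 for Dnajb1 (0.983), Cpe for Hsp90aa1 (0.966), Gata2 for Hspb1 (0.990) and Snrpc for Hspd1 (0.997). Over the 59 arrays with the mean of each age and tissue set taken away, they were Ell2 for Hspa1a (0.918), Cited1 for Hspa1b (0.907), Creg1 for Hspa2 (0.877), Dpysl2 for Hspa8 (0.834), Calr for Hsph1 (0.832), Matr3 for Hsp90aa1 (0.826), Hnrnpul2 for Hspd1 (0.675), Col5a1 for Hspb1 (0.612) and Zmym1 for Dnajb1 (0.587). These arrays share the drug and age effects, so the values carry no test.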

How the data were processed

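The authors deposited a linear signal intensity per probe set for 59 arrays; the submitters' processing notes name GCOS, and neither signal algorithm nor target is given in the sources used here. Scaling set the 2% trimmed mean of every array to 500, and values were floored at 32 and logged (log2). Gene names came from the platform annotation, with 34958 of 45101 probe sets having 1 symbol, 932 several and 9211 none. Each gene kept its probe set with the highest mean signal. Genes under a scaled signal of 100 on all but a few arrays were left out (3 arrays had to reach it, 4 at P84). One linear model per age and tissue was fitted with limma 3.58.1 (R 4.3.3, package data.table, version 1.17.8) with an intensity trend, and p-values were adjusted over all genes tested; intervals are 95%.

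The 9 genes, the pathway lists and the tests were chosen with earlier results of these data known. All 9 genes are reported, with up to 4 genes per list by adjusted p in VPA against MC at E14.5, up to 2 by running and the closest genes by correlation; others were named after their values were seen. Alternatives were quantile normalization, values as deposited, log2(signal + 32), no filter, a filter at 200, no trend, every probe set, only the groups compared, the replicate number as a block, inferred sex in embryos, both adult tissues in 1 fit, and each array left out. The procedure was tested on simulated data: for VPA at E14.5 (10931 genes) 62% of simulated log2 changes of 0.5 and 96% of those of 1 were recovered. There 12 of 170 calls were false. For MC+RW against MC these shares were 59% and 84% in the hippocampus and 56.6% and 83% in the cortex. Smaller changes were not simulated. Only a small part of the genes was changed, so recovery may differ where many genes change. Python 3.11.15 (matplotlib 3.10.9, pandas 2.3.3, numpy 2.4.6) made the figures.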

Additional observations from a re-analysis of the deposited data

Results flagged for a closer look

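Among 18 combinations of gene and P84 group, 1 array stood apart from its group: the lowest Hspa1b signal of P84 MC, 1130.8, against 1199.6 to 1213 on the other 3 arrays. Chance gives such a gap in about 1 of 20 groups.

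The VPA effect at E14.5 differed from that at E18.5 in the tests of the difference itself. On the log2 scale the E14.5 effect was larger than that in the E18.5 forebrain by 2.99 for Hspa1a, 3.00 for Hspa1b, 1.63 for Hspa2 and 0.35 for Hsph1. It was larger than that in the E18.5 hippocampus by 2.11 for Hspa1a, 2.11 for Hspa1b, 1.29 for Hspa2 and 0.51 for Hsph1.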

How the results depend on the processing

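The 216 gene and comparison results were rerun under the alternatives, which gave 3488 values. Of these 0 changed direction while called. A further 3402 kept their side of the threshold, and either kept their direction or shifted by less than the SD between arrays. With VPM at E14.5, where 1 of the 9 genes passed, 0 did so with values as deposited and 2 without a filter, with a filter at 200 and with the replicate number as a block. Same-numbered arrays were on average about as alike as other arrays, which cannot show whether the replicate numbers pair samples. The block changed no other count of the 9 genes. For running, where 0 passed in each tissue, every probe set tested gave 1 in the hippocampus; both tissues in 1 fit gave 2 for MC offspring and 2 for the mean of MC and VPA offspring; and that fit without VPA+RW replicate 3, added after seeing the data, gave 1 for VPA offspring and 4 for the mean. Leaving out 1 array at a time gave 4 to 5 passes with VPA and 1 to 1 with VPM at E14.5, 5 to 6 between the drugs, 4 to 5 and 4 to 4 for E14.5 minus E18.5 forebrain and hippocampus, 0 to 1 for running in the hippocampus and cortex (mean) and for MC+RW in the cortex, and 0 to 0 elsewhere. Hsph1 passed for the mean running effect without hippocampus VPA+RW replicate 3 (0.32, adjusted p = 0.0184), cortex MC+RW replicate 3 (0.26, 0.0300) or cortex VPA+RW replicate 3 (0.26, 0.0414). Hspb1 passed in E14.5 minus E18.5 forebrain without E14.5 MC replicate 2 (0.0251), forebrain MC replicate 1 (0.0190) or forebrain VPA replicate 3 (0.00745). Counts over all genes moved with the scaling and the filter, for VPM at E14.5 from 1279 to 464 with values as deposited and 619 without a filter. Where calls changed, the cause was not tested. Signals near the floor limit Hspa1a and Hspa1b in the embryo.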
